A study of Homo sapiens with 2 samples.

Results

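The cells described here were the 192 SY5Y cells richest in RNA of the histone gene H4C3, the top 10% of 1920 kept cells, out of 2879 cells in all. SY5Y is short for SH-SY5Y, an established neuroblastoma line of human origin obtained from ATCC. The cells were untreated and not synchronized, and grew in medium with serum and antibiotics in 2 flasks, SplitA and SplitB, split from 1 culture. Each flask was tagged with its own hashtag antibody, both were pooled, and an mRNA library and a hashtag library were made with a 10X Genomics 3′ kit. The values were UMI counts, that is, counts of captured mRNA molecules per gene and cell. A cell was assigned to the flask whose hashtag count was at least 3 times that of the other, with the other under a fixed limit, which gave 1179 cells to SplitA and 1605 to SplitB and left 95 multiplets. Kept cells had at least 1000 genes and under 15% of their UMIs in the 13 mitochondrial genes, and numbered 829 in SplitA and 1091 in SplitB.

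Members were chosen by H4C3 UMIs per 10000 UMIs of the cell, over both flasks together, and are called H4C3-high cells. They numbered 78 in SplitA, 9.41% of its kept cells (95% exact binomial interval 7.51 to 11.6%), and 114 in SplitB, 10.4% (8.70 to 12.4%). The other 1728 kept cells, 751 in SplitA and 977 in SplitB, are called other cells. Since H4C3 chose the members, its level is given as a description only, and H4C3 was left out of the summed levels and of every test. Both flasks came from 1 culture and 1 library, so p-values measure only the spread between these 2 flasks, which may be technical.

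H4C3 encodes histone H4, a core protein of the nucleosome. Histone genes of the replication-dependent kind are read while DNA is copied, when new chromatin needs histones, and their mRNA is destroyed when replication ends. Most of these mRNAs carry no poly(A) tail but end in a short stem-loop bound by the protein SLBP, so a method primed on poly(A) sees few of them. Entry into S phase is driven by E2F factors, which turn on genes for origin licensing, nucleotide supply and the replication fork, while genes of mitosis follow later in the cycle. SY5Y cells are noradrenergic neuroblasts, known for chromogranins, neuropeptides and catecholamine enzymes.

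The stem-loop of H4C3 and of histone genes that differed in the H4C3-high cells is shown, because it is the end by which these mRNAs are normally processed. H4C3 lies on chr6:26103933-26104337 (GRCh38, plus strand), a gene of 1 exon, and the stem-loop lies 58 bases after its stop codon. The sequences were read from GENCODE release 44 transcripts, each 5′ to 3′ on the strand of the gene, with the paired bases of the stem in capitals and the loop in lower case.
H4C3, chr6:26104317-26104332, plus strand: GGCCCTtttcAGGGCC
H1-3, chr6:26234217-26234232, minus strand: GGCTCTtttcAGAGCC
H2AC20, chr1:149887391-149887406, plus strand: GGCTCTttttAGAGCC
H2BC5, chr6:26158587-26158602, plus strand: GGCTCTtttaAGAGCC
H2AX, chr11:119094898-119094913, minus strand: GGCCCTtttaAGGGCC
The search asked for a stem of 6 paired bases that begins with GG and a loop of 4 bases that begins with TT, within 100 bases after the stop codon. It found a match in 57 of 62 replication-dependent histone genes other than H4C3, or 91.9%, against 69 of 19582 protein-coding genes (0.352%). A gene was counted if any of its annotated protein-coding transcripts held a match. The 13 matches in H4 genes, H4C3 included, all had a stem that starts 5′ with the letters shown for H4C3, while the 45 matches in H1, H2A, H2B and H3 genes of the list had the stem shown for H1-3.

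Both flasks had a large group of cells with few H4C3 UMIs and a further, broad group at higher levels. From 20 to 25 H4C3 UMIs per 10000 lay 5 cells of SplitA and 12 of SplitB, and from 45 to 50 lay 18 and 22. The 289 other cells richest in H4C3 had 28.0 to 83.7. The limit between H4C3-high and other cells was 83.71 H4C3 UMIs per 10000. The 3 members closest to the limit had 83.71, 83.77 and 84.22, and the 3 closest cells outside had 83.70, 83.70 and 83.63, so the limit cut through a continuous range. Within 10% of the limit lay 43 members and 41 other cells. Members of SplitA had 84.8 to 187 H4C3 UMIs per 10000 with a median of 105, and members of SplitB 83.7 to 162 with a median of 104. Other cells had medians of 4.07 and 4.16. A member held a median of 77 H4C3 UMIs, with 34 in the lowest and 187 in the highest. The H4C3-high cells held 15437 of the 33180 H4C3 UMIs of all kept cells, or 46.5%.

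**Figure D1:**
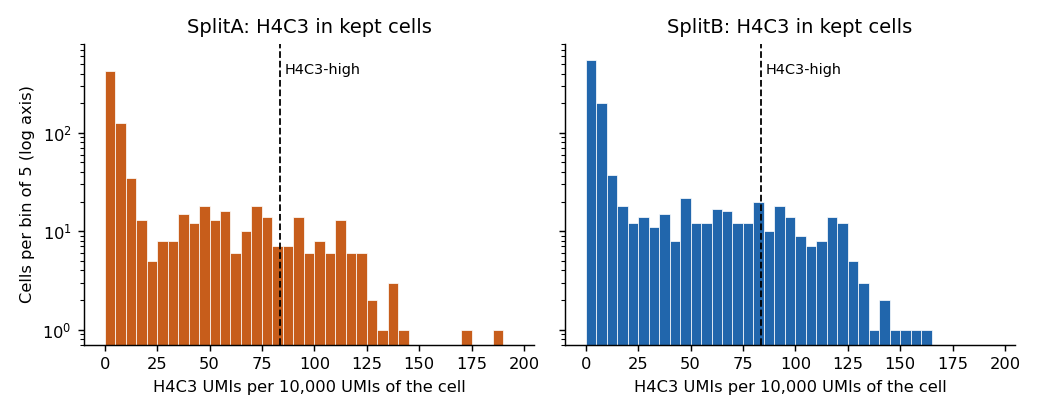
Number of kept cells (log axis) by H4C3 UMIs per 10000 UMIs of the cell, in bins of 5, for SplitA and SplitB. The dashed line is the limit of 83.71, right of which lie the 78 and 114 H4C3-high cells, with no gap at the limit.

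A low level of H4C3 was seen in most cells. An H4C3 UMI was present in 83.5% of other cells (95% exact binomial interval 81.7 to 85.2%), and in 58.1% (55.7 to 60.4%) after every cell was thinned to 2000 UMIs, which left out 1 cell. Cells called G1, which should hold little replication-dependent histone mRNA, had one in 75.4% (72.3 to 78.3%), with a median of 2.29 H4C3 UMIs per 10000 at a median depth of 6051 UMIs. Free RNA gives UMIs in cells that do not express a gene, and its part in this low level was not tested. Thinned to 2000 UMIs, members still held a median of 21 H4C3 UMIs against 1 in other cells.

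H4C3-high cells held more UMIs per cell than other cells in both flasks. In SplitA the median UMI count without H4C3 was 7029.5 in H4C3-high and 6158 in other cells, and in SplitB 7243 and 6428. The ratio of these medians was 1.14 in SplitA and 1.13 in SplitB (mean 1.13 ± 0.01, SD, n = 2 flasks). No member held more than 14119 UMIs, while other cells reached 27205. Thinned to 2000 UMIs, the medians of 864.5 and 869 genes in H4C3-high cells lay next to 858 and 859 genes in other cells. Mitochondrial genes took a median of 8.60% and 8.54% of UMIs in the 2 classes, and ribosomal protein genes 36.3% and 36.9%. Pairs of cells from the same flask carry a single hashtag and were not removed.

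The cells of both classes showed the line's own markers. Of 22 adrenergic and secretory genes, TH, which encodes the rate-limiting enzyme of catecholamine synthesis, was the one without a UMI in any H4C3-high cell. Markers of other cell types (blood, endothelium, epithelium, stroma and glia) were nearly absent, with 30 UMIs over 14 genes in the 192 H4C3-high cells. On the CPM scale (UMIs per 1000000 UMIs of the class, without H4C3) their sum was 32.3 against 19.9 in other cells of SplitA and 13.9 against 20.9 in SplitB. Of these 30 UMIs, 26 were of PDGFRB, a receptor of stromal cells, and 11 of the 14 genes, PTPRC, CD3E and PECAM1 among them, were at 0.

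No H4C3-high cell was called G1 by Seurat's scoring of cell cycle genes, a call that compares the levels of 42 S and 52 G2M genes, the members of its lists found in the table, H4C3 not among them. In SplitA 28 of 78 members were called S (35.9%, 95% exact binomial interval 25.3 to 47.6%) and 50 were called G2M (64.1%, 52.4 to 74.7%). In SplitB the calls were 39 S of 114 (34.2%, 25.6 to 43.7%) and 75 G2M (65.8%, 56.3 to 74.4%). Other cells were called G1 in 47.1% and 48.7%, S in 30.0% and 28.1%, and G2M in 22.9% and 23.1%. The 0 of 192 members in G1 allow a share of up to 1.90%. The cells had been proposed as cells of mid S phase, and the calls go against that as a name for all of them, since most fell under G2M. When cells were thinned to 2000 UMIs before scoring, 38.5% of members were called S, 55.2% G2M and 6.25% G1. Phase calls rest on summed scores and are not a measure of DNA content.

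**Figure D2:**
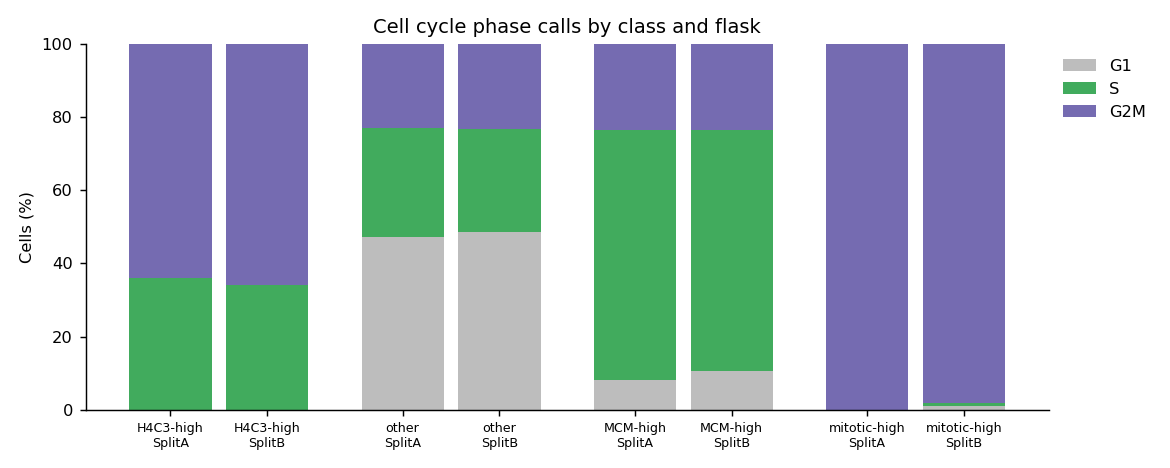
Share of cells (%) called G1, S and G2M in each class and flask. H4C3-high cells hold no cell called G1 and are 64.1% and 65.8% G2M, MCM-high cells are mostly S, and mitotic-high cells are nearly all G2M, classes chosen by genes of the kind the calls use.

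H4C3-high cells were set beside a pair of other classes of the cycle, each fixed at 192 cells. MCM-high cells, the 192 kept cells with most UMIs of MCM2 to MCM7 per 10000, mark origin licensing, and mitotic-high cells, the 192 with most UMIs of 10 mitotic genes such as CCNB1 and CDC20, mark late G2 and mitosis. Of the H4C3-high cells, 24 were also MCM-high (12.5%, 95% exact binomial interval 8.18 to 18.03%, the same share of each class), against 9.72% of other cells. Mitotic-high cells made up 9 of 192 members (4.69%, 2.17 to 8.71%) and 10.6% of other cells. By flask, 6 of 78 members in SplitA and 3 of 114 in SplitB were mitotic-high. Members in neither class numbered 160, or 83.3% (77.3 to 88.3%), and other cells in neither class 1391 of 1728, or 80.5% (78.5 to 82.3%), so the intervals overlap.

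Which genes go with a high level of H4C3 was asked by summing UMIs over the H4C3-high and the other cells of each flask. The 4 sums held 558084 and 861526 UMIs for H4C3-high cells and 5068576 and 6843318 for other cells of SplitA and SplitB. With edgeR's quasi-likelihood test, the flask as a block and Benjamini-Hochberg adjustment over 10867 genes, 518 genes were higher (4.77%) and 479 lower (4.41%) in H4C3-high cells at an adjusted p under 0.05. The median log2 ratio over all genes tested was -0.00. The fit had 1 residual degree of freedom and took its spread largely from all genes together, and DESeq2 called 89 genes higher and 60 lower, every one of them also called by edgeR. Of 85 named genes called in this comparison, 32 were not called with the top 5% of cells by H4C3. With cells matched in depth 80 of them had a value, of which 24 were not called. Cells called G1 made up 48.0% of other cells and none of the members, so the contrast also holds the difference between cells in and outside G1.

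PCLAF, TYMS and RRM2, the markers named with H4C3, were all higher. PCLAF, a protein that binds the sliding clamp PCNA, was at 391 CPM in H4C3-high and 189.6 CPM in other cells of SplitA, and at 424 and 182 CPM in SplitB, a log2 ratio of 1.14 ± 0.08 (SE). TYMS, which makes thymidylate, had 168 and 98.4 CPM in SplitA and 183 and 93.1 CPM in SplitB (0.89 ± 0.12). RRM2, the regulated subunit of ribonucleotide reductase, had the largest ratio of the higher genes of at least 50 CPM, with 165 against 53.7 CPM and 156 against 52.3 CPM (1.59 ± 0.13, edgeR adjusted p = 1.1e-29). For each of the 3 genes both H4C3-high sums lay above both sums of other cells.

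Genes of nucleotide synthesis other than RRM2 and TYMS numbered 12, all tested, of which 7 were higher and none lower, with a median log2 ratio of 0.70. SHMT1 of this list reached the filter on low counts in both flasks only in H4C3-high cells, so the count is a description. RRM1, the large subunit of ribonucleotide reductase, rose by 0.95 ± 0.18, and was not called with cells matched in depth. TK1, the thymidine kinase of S phase, rose by 0.93 ± 0.15, from 54.8 to 89.6 CPM in SplitA and from 50.9 to 108 CPM in SplitB. These medians, and those of the groups below, stand beside the median of -0.00 over all genes tested, and the lists were chosen with earlier results known, so they are descriptions.

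Genes of origin licensing were raised in part. In the list of 25 genes of the G1/S transition and origin licensing, 14 were higher and none lower (median log2 ratio 0.72). GINS3 and GINS1, parts of the active helicase, rose by 1.51 ± 0.33 and 1.07 ± 0.35, CDC6, which loads the MCM helicase, by 1.15 ± 0.26, and the factor E2F2 by 1.38 ± 0.25. Of MCM2 to MCM7, MCM6 (0.85 ± 0.21) and MCM3 (0.68 ± 0.16) passed. With the top 5% of cells GINS3, GINS1, CDC6, E2F2 and MCM3 were not called, and with cells matched in depth GINS3, GINS1, CDC6 and MCM6 were not. MCM5 had 44.8 against 31.0 CPM in SplitA and 30.2 against 27.2 CPM in SplitB, 0.32 ± 0.23, and did not. CCNE2, the cyclin of the G1/S transition, was rare in both classes, with 3.58 against 2.17 CPM and 4.64 against 3.65 CPM, 0.46 ± 0.70. It reached the filter on low counts in both flasks only in H4C3-high cells.

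At the replication fork 17 of 33 genes were higher and none lower (median 0.72), among them the nuclease DNA2, which had 4 and 10 UMIs in H4C3-high cells, passed the filter on low counts through these cells alone and was not called with the top 5% of cells. POLE2 also reached that filter in both flasks only in H4C3-high cells and POLD4 only in other cells, so the count is a description. POLD3, a subunit of DNA polymerase delta, rose by 1.58 ± 0.35, POLA2 of DNA polymerase alpha by 1.40 ± 0.32 and the primase subunit PRIM2 by 1.27 ± 0.40. POLD3 and PRIM2 were not called with the top 5% of cells, nor POLD3 and POLA2 with cells matched in depth. Chromatin assembly factors and histone chaperones followed, with 14 of 20 higher and none lower (median 0.60). ATAD2, a bromodomain ATPase of newly made chromatin, rose from 20.5 to 69.9 CPM in SplitA and from 23.7 to 55.7 CPM in SplitB (1.45 ± 0.20). ASF1B, which hands H3 and H4 to the assembly factor CAF-1, rose by 1.41 ± 0.25 and the chromatin remodeller HELLS by 1.22 ± 0.14. ASF1B was not called by DESeq2 (1.38).

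Genes of fork protection and homologous recombination had a median log2 ratio of 0.90. Of its 22 genes, 20 passed the filter on low counts, 14 of them were higher and none lower. ESCO2, which acetylates cohesin during replication, had 32.3 against 8.29 CPM in SplitA and 17.4 against 5.26 CPM in SplitB (1.84 ± 0.34). FANCD2 of the Fanconi pathway rose by 1.56 ± 0.23, BRCA2 by 1.49 ± 0.28, the helicase BLM by 1.41 ± 0.37 and BRCA1 by 1.15 ± 0.19. BLM moved unevenly, with 26.9 against 6.51 CPM in SplitA and 12.8 against 7.16 CPM in SplitB. BLM was not called with the top 5% of cells, nor BRCA1 with cells matched in depth. Of the 12 largest ratios among called genes of at least 50 CPM in a class in both flasks, those outside the lists were CDCA5 and STAG1, a protector and a subunit of cohesin, PKMYT1, which restrains CDK1, MYBL2, a transcription factor of late S and G2 genes, SAE1 of the SUMO pathway, and C21orf58. Their log2 ratios ran from 1.19 to 1.42, and PKMYT1 was not called with the top 5% of cells.

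Other replication-dependent histone genes had few UMIs. Of 62 such genes without H4C3, 58 were in the table and 16 passed the filter, of which 6 were higher and 2 lower. The filter asked for 3.37 CPM in at least 2 of the 4 sums. H1-3, H1-4, H1-5 and H2BC4 reached it in both flasks only in H4C3-high cells and H2AC6, H2BC5, H2BC11 and H2BC21 only in other cells, so the count is shaped by the filter, nothing is read from it, and the values of these genes are descriptions. H2AC20 (1.73 ± 0.27), H2BC8 (1.47 ± 0.25) and H2BC15 (1.36 ± 0.24), core histones, reached it in both classes and rose in both flasks, and H2BC8 and H2BC15 were not called with cells matched in depth. H1-3 and H1-5 are linker histones. H1-3 had 37.6 against 3.16 CPM in SplitA and 25.5 against 2.92 CPM in SplitB (3.32 ± 0.37), and H1-5 had 28.7 against 3.16 and 13.9 against 1.46 CPM (3.18 ± 0.46). H1-4 rested on 3 and 9 UMIs in H4C3-high cells (2.15 ± 0.61).

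H2AC6 and H2BC5 were the genes called lower. H2AC6 had 3.58 against 18.5 CPM in SplitA and 2.32 against 23.2 CPM in SplitB, from 2 UMIs in the H4C3-high cells of each flask (-2.91 ± 0.51), and H2BC5 had 3.58 against 23.7 and 2.32 against 21.6 CPM, also from 2 UMIs each (-2.98 ± 0.51). H2AC6 was not called with the top 5% of cells. H2AC25, an H2A gene outside the list, fell too, from 98.6 to 41.2 CPM and from 98.3 to 44.1 CPM (-1.20 ± 0.18). Each of the 16 tested genes, and H2AC25 too, has an annotated transcript with the stem-loop, and that of H2AC6 has the same 16 bases as H1-3 above. Which transcripts of these genes gave the counted UMIs was not tested. H1-3 reached the filter only in H4C3-high cells and H2AC6 only in other cells, so nothing is read from their opposite ratios. Histone genes are near copies of each other, and how the authors' counting treated reads that match several of them is not given in the sources used here.

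H1-2 was uneven between flasks, with 30.5 against 36.1 CPM in SplitA and 54.6 against 40.6 CPM in SplitB (0.21 ± 0.20). The remaining 7 tested genes, H2BC4, H2BC9, H4C11, H2AC8, H3C10, H2BC21 and H2BC11, had log2 ratios from -1.85 to 0.83 and adjusted p of at least 0.197 in edgeR. H4C3 held 99.0% of the UMIs of 14 H4 genes in other cells, and 99.9% in H4C3-high cells, where the choice by H4C3 raises the share. The other 13 H4 genes together had 14.3 against 13.8 CPM in SplitA and 15.1 against 16.1 CPM in SplitB, with exact Poisson intervals of 6.19 to 28.2 and 8.03 to 25.8 CPM in H4C3-high cells, so a change was not detectable at this depth.

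**Figure D3:**
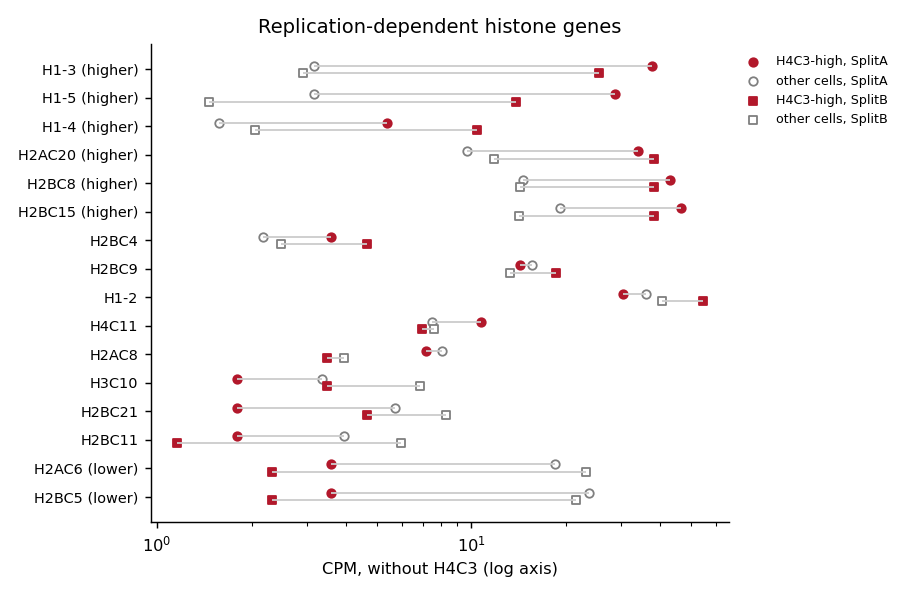
CPM without H4C3 (log axis) of the 16 replication-dependent histone genes that passed the filter, in H4C3-high cells (filled) and other cells (open) of SplitA (circles) and SplitB (squares), ordered by log2 ratio. H1-3 and H1-5 lie far to the right in H4C3-high cells, and H2AC6 and H2BC5 far to the left.

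Histone variants are made throughout the cycle from mRNAs with a poly(A) tail, and H2AX is known to be made in both forms. Of 12 genes, 10 passed the filter, 7 were higher and none lower (median 0.47). H2AX, the variant phosphorylated at DNA breaks, had 233 against 82.1 CPM in SplitA and 186 against 76.1 CPM in SplitB (1.38 ± 0.12), and was the one of 11 annotated variants with a stem-loop. H2AZ1 rose by 0.81 ± 0.04, H1-10 by 0.56 ± 0.05 and H2AZ2 by 0.53 ± 0.06. In the machinery that makes histone mRNA, 4 of 13 genes were higher and none lower (median 0.40). All 4 calls were lost with the top 5% of cells, and those of NPAT, SSRP1 and LSM11 also with library size alone and with no filter. NPAT, the coactivator of histone genes, had 14.3 against 6.71 and 18.6 against 9.06 CPM (1.05 ± 0.37), and SSRP1, a histone chaperone at the fork, had a ratio of 0.34 ± 0.12. LSM11 of the U7 particle, at 1.51 ± 0.50, reached the filter in both flasks only in H4C3-high cells and had 14.3 against 2.56 CPM in SplitA and 9.29 against 4.97 CPM in SplitB, a log2 ratio of 2.48 in SplitA alone, 0.90 in SplitB alone and 0.22 with the top 5% of cells. SLBP had 43.0 against 36.7 CPM in SplitA but 66.2 against 35.8 CPM in SplitB (0.65 ± 0.19), and CASP8AP2, a partner of NPAT, had 26.9 against 14.4 and 12.8 against 13.6 CPM (0.40 ± 0.32, not called).

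Genes of G2 and mitosis were partly raised. Of 34 genes, 14 were higher and none lower, with a median log2 ratio of 0.40. The mitotic kinases TTK and AURKB rose by 1.33 ± 0.45 and 1.21 ± 0.20, the spindle motor KIF11 by 1.22 ± 0.24, CDK1, the kinase that starts mitosis, by 1.11 ± 0.19 and CCNA2, the cyclin of S and G2, by 0.91 ± 0.21. TTK had 16.1 against 4.14 CPM in SplitA and 10.4 against 5.70 CPM in SplitB, 1.96 in SplitA alone and 0.87 in SplitB alone. KIF11 was at 0.81 in SplitA alone and 1.48 in SplitB alone. With the top 5% of cells by H4C3 the ratios were 1.34 for TTK, 1.05 for KIF11, 0.82 for CDK1 and 0.35 for CCNA2, and none of these 4 was called. TTK was also not called with the top 20% of cells, after thinning, with library size alone or with no filter, and neither TTK nor KIF11 was called with cells matched in depth. MKI67, the proliferation antigen, rose from 117 to 183 CPM in SplitA and from 107 to 204 CPM in SplitB (0.81 ± 0.11). CCNB1, the mitotic cyclin, had 19.7 against 27.4 CPM and 18.6 against 25.6 CPM, a ratio of -0.47 ± 0.28 that did not pass (edgeR adjusted p = 0.36). Of the 10 genes that define the mitotic-high cells, TPX2 (0.70 ± 0.17) and CENPF (0.45 ± 0.09) were higher and 8 were not called, and TPX2 was not called with the top 5% of cells. DESeq2 called neither TPX2 (0.72) nor CENPF (0.44).

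Among 18 genes of cyclin D, CDK4/6 and their inhibitors, 17 passed the filter, 5 were higher and 1 lower (median 0.33). E2F7, an E2F repressor, had 4 and 7 UMIs in H4C3-high cells and 12 and 13 in other cells (1.87 ± 0.61), reached the filter in both flasks only in H4C3-high cells, as E2F8 did, and was not called with no filter or with the top 5% of cells. The CDK4/6 inhibitors CDKN2D and CDKN2A were at 0.91 ± 0.20 and 0.84 ± 0.25, neither of them called with the top 5%. CDKN1C, a CDK inhibitor of cells that leave the cycle, fell from 76.2 to 32.3 CPM in SplitA and from 82.3 to 32.5 CPM in SplitB (-1.30 ± 0.20). Of 13 genes of the p53 response, 11 passed the filter, 2 were lower (PHLDA3, -1.02 ± 0.30, and BBC3, -0.98 ± 0.32) and 1 was higher (BAX, 0.36 ± 0.12), with a median of -0.42. None of these 3 was called with the top 5% of cells or with cells matched in depth, and BBC3 was at -0.42 with SplitA and at -1.39 with SplitB as the sole flask. In the p53 list SESN1 reached the filter in both flasks only in H4C3-high cells and RRM2B only in other cells. Of 14 stress genes 2 were lower, both metallothioneins, with a median of -0.26. HSPA1A and DDIT3 of the stress list reached the filter in both flasks only in other cells. The counts and medians of both lists are therefore descriptions. The 2 metallothionein calls rested on SplitB alone. MT1X had 52.0 against 56.8 CPM in SplitA and 29.0 against 114 CPM in SplitB, and MT2A had 59.1 against 59.0 and 59.2 against 120.0 CPM. Without SplitB the log2 ratio of MT1X was -0.13, and that of MT2A 0.0034.

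Secretory and adrenergic genes were among the lower genes. Of 22 such genes, 20 passed the filter, 11 were lower and 1 higher (median -0.52). CHGB, a chromogranin of secretory granules, had 34.0 against 203 CPM in SplitA and 34.8 against 187 CPM in SplitB (-2.49 ± 0.16, edgeR adjusted p = 6.6e-48), and CHGA, its partner, had 151 against 406 and 117 against 371 CPM (-1.56 ± 0.10). The neuropeptide galanin (GAL) fell by 1.31 ± 0.05 on the log2 scale and DLK1, a Notch ligand homologue of neuroblasts, by 1.16 ± 0.04, from 2700.0 to 1301 CPM in SplitA and from 2812 to 1200.2 CPM in SplitB. The summed list stood at 5548 CPM in H4C3-high and 9001 CPM in other cells of SplitA, and at 5533 and 9247 CPM in SplitB. DLK1 and GAL carried 63.5% of this difference in SplitA and 66.3% in SplitB, and without them the sums were 3729 against 4991 CPM and 3743 against 4995 CPM. The 8 members not called included the transcription factors HAND2 (0.05 ± 0.08), GATA2 (0.15 ± 0.07), GATA3 (-0.07 ± 0.09), ISL1 (-0.16 ± 0.11) and TFAP2B (-0.01 ± 0.11).

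Genes of the mesenchymal state of neuroblastoma cells fell as well. Of 14 genes 7 passed the filter, 5 were lower and none higher (median -1.14). S100A11, a calcium-binding protein, had the smallest ratio of all named genes, 8.96 against 103 CPM in SplitA and 5.80 against 132 CPM in SplitB, from 5 UMIs in the H4C3-high cells of each flask (-4.09 ± 0.27). S100A6 (-1.14 ± 0.10) and VIM, the filament protein vimentin (-1.42 ± 0.16), fell in both flasks. S100A10, also counted as lower, reached the filter in both flasks only in other cells and had 2 and 1 UMIs in H4C3-high cells (-3.84 ± 0.50, -2.97 in SplitA alone and -4.80 in SplitB alone). The summed list was 269 against 617 CPM in SplitA and 232 against 720.4 CPM in SplitB. PRRX1, COL1A2 and TNC, which mark that state, had no UMI in either class. YAP1, COL1A1 and CD44 had none in H4C3-high cells and only 3, 24 and 25 in other cells, so nothing is read from these zeros. Over both flasks FN1 (2.82 against 1.85 CPM) and NOTCH2 (9.16 against 6.13 CPM) stood higher in H4C3-high cells, and SNAI2 lower (4.93 against 7.56 CPM).

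Further genes of the 12 smallest ratios were LMNA, which encodes lamin A (34.0 against 94.9 and 33.7 against 97.0 CPM, -1.51 ± 0.19), MXD4, a repressor that opposes MYC (-1.46 ± 0.20), RGS4, a brake on G protein signals (-1.28 ± 0.15), and the signalling adaptor SHC1 (-1.21 ± 0.18). MXD4 had 19.7 against 84.2 CPM in SplitA and 38.3 against 85.2 CPM in SplitB. By size alone, 20 genes were at least 2-fold higher and 14 at least 2-fold lower in both flasks, of 2140 genes with at least 50 CPM in a class in both.

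**Figure D4:**
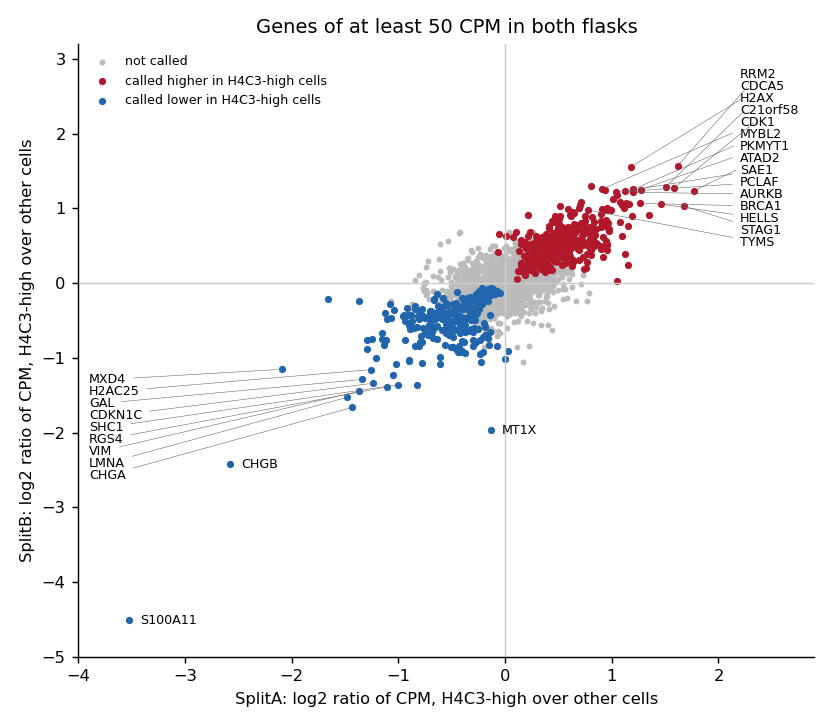
Log2 ratio of CPM, H4C3-high over other cells, in SplitA (x axis) and SplitB (y axis) for genes of at least 50 CPM in a class in both flasks, coloured by call, with the genes of largest and smallest ratio named. S100A11 and CHGB lie apart at the lower left, and MT1X lies near 0 in SplitA but at -1.97 in SplitB.

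The comparison with MCM-high cells set the members beside cells rich in licensing mRNA. After the 24 cells of both classes were left out, 97 of 5266 genes were higher in H4C3-high cells (1.84%) and 102 lower (1.94%), not counting the 6 MCM genes that chose the MCM-high cells. PCLAF was at 395 against 313 CPM in SplitA and 419 against 324 CPM in SplitB (0.42 ± 0.12), and RRM2 at 146 against 97.0 and 154 against 109 CPM (0.61 ± 0.19). Neither call held with library size alone (0.35 and 0.54), PCLAF was not called by DESeq2 (0.42), and RRM2 not with no filter (0.66) or with the top 5% of cells (0.53). TYMS did not pass, with 146 against 159.9 and 174 against 204 CPM (-0.12 ± 0.17). RRM2 was the 1 gene called higher of 12 tested genes of nucleotide synthesis, none was lower, and of 15 tested genes of the G1/S transition and licensing none was called. The filter was 19.04 CPM here. In these lists DCK, GINS3 and GINS1 reached it in both flasks only in H4C3-high cells. MTHFD1, GART, GINS4, UNG and CDC45 did so only in MCM-high cells, so nothing is read from these counts. E2F1, the factor that starts the S phase programme, had 126 against 153 and 149 against 138 CPM (-0.00 ± 0.18).

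Some histone genes were also called between H4C3-high and MCM-high cells. H1-3 rose by 2.31 ± 0.55 (1.84 in SplitA alone, 3.55 in SplitB alone, and 2.16 and not called with the top 5% of cells) and H2BC8 by 1.65 ± 0.41. They were the called genes of 5 replication-dependent ones tested, and both, like H2AC20, reached the filter of 19.04 CPM in both flasks only in H4C3-high cells, so nothing is read from that count. H2AX (0.86 ± 0.17), H1-10 (0.50 ± 0.09) and H2AZ1 (0.32 ± 0.07) were higher too, as were HELLS (0.80 ± 0.21) and MYBL2 (0.73 ± 0.17). H2AZ1 was not called by DESeq2, which gave 5 of the 28 named genes called here an adjusted p and called 2. Among called genes of at least 50 CPM in a class in both flasks, the 5 largest ratios were those of FBXO45, a ubiquitin ligase part (1.22 ± 0.33), DSEL, an epimerase of dermatan sulfate (1.18 ± 0.30, at 0.80 for SplitA and 1.77 for SplitB as the sole flask, having reached the filter in both flasks only in H4C3-high cells), GTF3C2 of RNA polymerase III (1.12 ± 0.30), STAG1 (1.10 ± 0.31) and MRM2, a methyltransferase of mitochondrial rRNA (1.06 ± 0.27). STAG1 was at 1.45 with SplitA and at 0.60 with SplitB as the sole flask, and MRM2 at 1.48 and 0.53. Of 28 named genes called in this comparison, 13 were not called with the top 5% of cells, among them H1-3, H2BC8, HELLS, FBXO45, DSEL, GTF3C2 and STAG1, and 7 not with the top 20%, FBXO45 and GTF3C2 among them.

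LMNA had 34.4 against 84.4 CPM and 33.7 against 119.9 CPM (-1.53 ± 0.27), the smallest ratio among genes of at least 50 CPM, followed by CHGB (-1.47 ± 0.27), UQCRC1, a subunit of respiratory complex III (-1.33 ± 0.30), TUBB2A, a neuronal tubulin (-1.25 ± 0.33), and VIM (-1.25 ± 0.25). TUBB2A was not called with the top 5% or the top 20% of cells. CHGB differed between flasks in this comparison, 28.4 against 149 CPM in SplitA and 36.3 against 55.5 CPM in SplitB. Of 20 adrenergic and secretory genes tested, 8 were lower and 1 higher (median log2 ratio -0.31, against 0.01 over all genes tested). Of 24 tested genes of G2 and mitosis, 2 were higher (CKS2 and CKS1B, which bind CDK1), and 1 was lower (ARL6IP1). KIF11 of the G2 and mitosis list reached the filter in both flasks only in H4C3-high cells. CCNB1, HMMR and CCNB2, and SCG2 of the adrenergic list, did so only in MCM-high cells, so both counts are descriptions. CDK1 (0.60 ± 0.27) and CCNB1 (-0.97 ± 0.39) were not called.

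Set against mitotic-high cells, the H4C3-high cells were compared with cells chosen by 10 mitotic genes. After the 9 shared cells were left out, 178 of 6220 genes were higher (2.86%) and 163 lower (2.62%), not counting the 10 mitotic genes that chose the mitotic-high cells. Of 20 tested G1/S and licensing genes 8 were higher and none lower, and of 11 nucleotide synthesis genes 7 were higher and none lower. The filter was 15.4 CPM here, and 7 of these 20 genes (E2F2, DTL, MCM10, GINS3, CDC6, GINS1 and CDC45) and 1 of the 11 (CTPS1) reached it in both flasks only in H4C3-high cells, so nothing is read from the counts. Among called genes of at least 50 CPM in a class in both flasks, the largest ratios were those of HELLS (140.4 against 47.4 and 121 against 46.4 CPM, 1.57 ± 0.19), TEDC2, a centriole protein (1.53 ± 0.26), THAP7, a chromatin repressor (1.52 ± 0.28), ATAD2 (1.51 ± 0.30) and E2F1 (1.49 ± 0.18). ATAD2 was another gene that reached the filter in both flasks only in H4C3-high cells, and was at 1.01 with SplitA and at 1.89 with SplitB as the sole flask. SLBP, which also reached the filter in both flasks only in H4C3-high cells, had 42.3 against 14.05 and 66.5 against 32.8 CPM (1.28 ± 0.27).

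Of 24 tested genes of G2 and mitosis 18 were lower in H4C3-high than in mitotic-high cells and none higher, a direction largely fixed by the choice of mitotic-high cells, so nothing is read from it. DLGAP5, a spindle protein, had 11.5 against 98.3 CPM and 15.4 against 84.6 CPM (-2.57 ± 0.28), and REEP4 (-2.36 ± 0.33), KIF14 (-2.33 ± 0.28), NEK2 (-2.20 ± 0.26) and SGO2 (-2.03 ± 0.28), all with roles in mitosis, followed. DLGAP5, REEP4, KIF14 and NEK2 reached the filter in both flasks only in mitotic-high cells. MKI67 (-0.97 ± 0.12) and CCNA2 (-1.21 ± 0.19) were lower as well. H1-3 had 18 and 19 UMIs in H4C3-high cells against 0 and 1 in mitotic-high cells of SplitA and SplitB, and H2BC8 stood at 1.87 ± 0.34, both of which reached the filter in both flasks only in H4C3-high cells. H2BC15, which reached it in both classes, rose by 1.38 ± 0.31. H2AX was at 229 against 211 and 183 against 206 CPM (0.06 ± 0.12, not called). LMNA was lower here too, 34.6 against 118 and 34.4 against 134 CPM (-1.77 ± 0.20), as were S100A11 (-2.96 ± 0.43), which reached the filter in both flasks only in mitotic-high cells, with -1.87 in SplitA alone, -3.79 in SplitB alone and -0.75, not called, with the top 20% of cells, and CHGB (-1.08 ± 0.24), VIM (34.6 against 66.7 and 53.4 against 121 CPM) and RGS4 (-0.87 ± 0.20), of which CHGB and VIM were also not called with the top 20%. The 3 comparisons share the H4C3-high cells and are not independent of each other.

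Levels of the gene groups along H4C3 are given as a description, with no test. Other cells without an H4C3 UMI (285 cells) were set beside 5 equal bins of other cells with one (288 or 289 cells each) and the H4C3-high cells. PCLAF, TYMS and RRM2 together went from 176 and 183 CPM without H4C3 to 689 and 647 CPM in the highest bin of other cells and 724 and 763 CPM in H4C3-high cells of SplitA and SplitB. MCM2 to MCM7 stood at 209 and 219 CPM without H4C3 and at 474 and 388 CPM in the highest bin, with 389 CPM in H4C3-high cells of both flasks. The 10 mitotic genes were higher in bin 4, counted from the lowest, at 893 and 719 CPM, than in the highest bin, at 589 and 544 CPM, and stood at 767 and 630.3 CPM in H4C3-high cells. The share called G1 was 71.6% without H4C3, 2.42% in the highest bin and 0 in H4C3-high cells, and S calls were most frequent in the highest bin of other cells, at 57.4%.

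The adrenergic and secretory genes stood at 11328 and 10440 CPM without H4C3, at 6777 and 6699.8 CPM in the highest bin and at 5548 and 5533 CPM in H4C3-high cells. The steps between were not steady, since in SplitB the sum was 8858 CPM in bin 3 and 9397 CPM in bin 4. Other replication-dependent histones did not follow H4C3 evenly. Their sum was 215 and 223 CPM in cells without H4C3, 162 and 182 CPM in bin 4 and 305 and 297 CPM in H4C3-high cells. Depth moved along this axis too, with a median of 5324 UMIs in cells without an H4C3 UMI and 7444 in the highest bin, and its part in these levels was not tested.

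**Figure D5:**
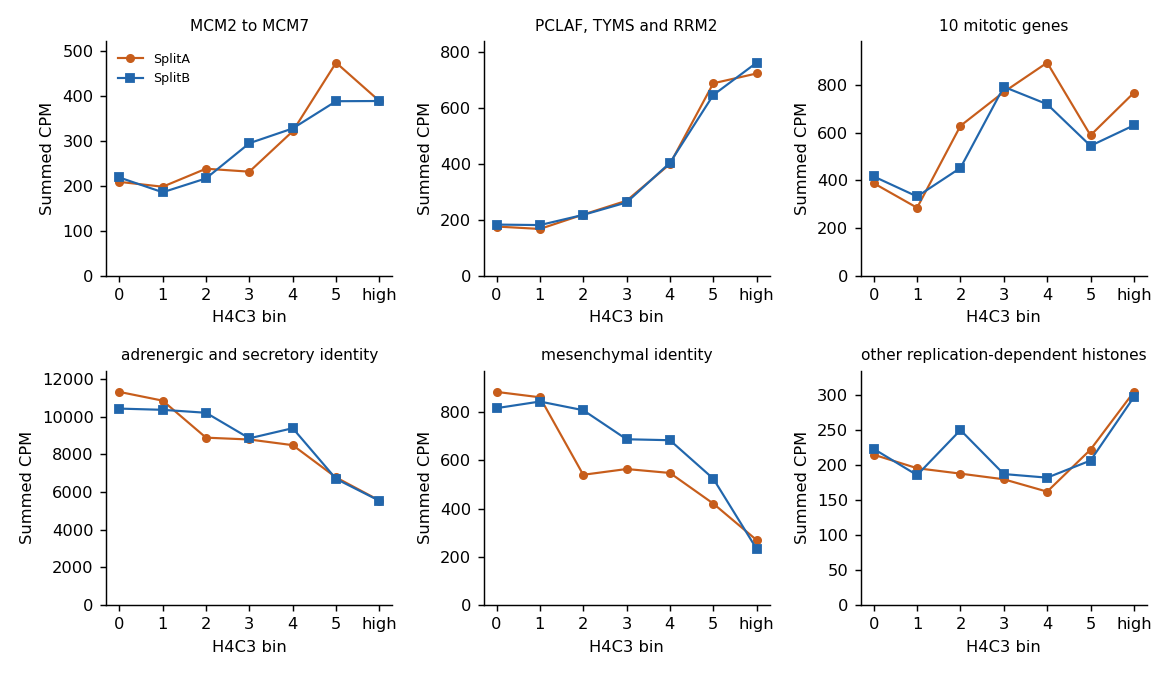
Summed CPM without H4C3 of 6 gene groups in other cells without an H4C3 UMI (0), in 5 equal bins of other cells by H4C3 (1 to 5) and in H4C3-high cells (high), for SplitA and SplitB. PCLAF, TYMS and RRM2 are higher in the last step than in the first, adrenergic and mesenchymal genes are lower, not by even steps, and other histones are highest at the last step.

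Members varied among themselves. Split into 3 equal groups of 64 by H4C3, they had median levels of 90.9, 105 and 122 H4C3 UMIs per 10000. PCLAF, TYMS and RRM2 together were at 748, 711 and 784 CPM. The share called G2M was 60.9%, 59.4% and 75%, in SplitA 65.4%, 60% and 68.2% and in SplitB 57.9%, 58.8% and 78.6%. Mesenchymal genes stood at 271, 279 and 189 CPM. The 67 members called S and the 125 called G2M had almost the same H4C3, with medians of 104 and 108 UMIs per 10000. S-called members had 435 CPM of MCM2 to MCM7 and 479 CPM of the 10 mitotic genes, G2M-called members 364 and 795 CPM, a difference largely fixed by the call, whose lists hold genes of both kinds. Adrenergic genes stood at 5707 and 5448 CPM in the S-called and G2M-called members, and CHGB at 34.1 and 34.7 CPM.

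Promoter stretches of 2 markers, RRM2 and TYMS, and of H1-5 are shown, because they belong to families known for the motifs marked in them. The stretches come from RefSeq (GRCh38.p14), where 3 of the 4 markers matched (not H4C3). They run 5′ to 3′ up to the base before the transcription start, and capitals mark a match on either strand to TTTNNCGC, an E2F-type motif, or CCAAT, the box bound by NF-Y. The search also covered the core promoter motif TATAAA and, for genes of mitosis, the cell cycle element TTTGAA, neither of which lies in these stretches.
RRM2, chr2:10122589-10122738, plus strand: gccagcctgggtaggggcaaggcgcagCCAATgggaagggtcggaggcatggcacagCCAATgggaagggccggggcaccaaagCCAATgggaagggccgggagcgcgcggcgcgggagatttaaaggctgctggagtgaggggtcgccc
TYMS, chr18:657593-657652, plus strand: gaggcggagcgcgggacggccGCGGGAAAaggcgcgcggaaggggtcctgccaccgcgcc
H1-5, chr6:27867589-27867688, minus strand: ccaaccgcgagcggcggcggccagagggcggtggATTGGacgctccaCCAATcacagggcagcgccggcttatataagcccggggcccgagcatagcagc
RRM2 has 3 CCAAT boxes at 123, 93 and 66 bases before the start, TYMS an E2F-type match on the reverse strand at 39 bases, and H1-5 a CCAAT on each strand, at 53 and 66 bases.

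Counted over windows of 300 bases, TTTNNCGC stood in 19.8% of 434 matched promoters of higher genes, 7.51% of 386 of lower genes, 11.1% of 8807 of all genes tested and 6.90% of all 27305 promoters. CCAAT stood in 47.9% of higher, 36.3% of lower and 37.3% of tested genes, and TTTGAA in 17.7%, 5.70% and 9.15%. Both strands were searched, and none of the motifs contains another. Of 58 matched replication-dependent histone promoters 84.5% held CCAAT and 67.2% TATAAA, against 35.7% and 11.95% of all promoters. A match is a description of letters in this window, not a binding site.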

How the data were processed

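The UMI counts per gene and cell, with the hashtag counts, were deposited by the authors as 1 unnormalized table, the submitters' processing notes naming Cell Ranger 4.0.0, STAR 2.7 and hg38. The gene annotation version and the treatment of reads matching several genes are not given in the sources used here. A file of hashtag references was not used. The cells, lists and tests were chosen with earlier results of these data known. Hashtags left 2 flasks, which share culture and library, as replicates. UMIs were summed per flask and class (450398 to 6843318 UMIs) and fitted in R 4.3.3 with edgeR 4.0.16 (TMM, filterByExpr with a minimum count of 10, quasi-likelihood test, flask as block, Benjamini-Hochberg adjustment, threshold 0.05). On simulated data the steps called 40.8% of genes changed 2-fold and 16.2% of those changed 1.5-fold against other cells. The shares were 55.7% and 19.4% against MCM-high cells, and 44.9% and 25.5% against mitotic-high cells. At most 0.133% of unchanged genes were called. A gene not called may therefore still differ. DESeq2 1.42.0, no block, library size alone, no filter, other limits on cells and ranks, and leaving out each flask were the alternatives. Phases were called with Seurat 5.3.0 on its S and G2M lists. Same-flask doublets carry 1 hashtag and were not removed. Intervals are exact and cover counting error only. Pairing of the flask classes comes from the hashtags, as both classes of a flask grew together in it. Named genes were the 3 markers, the 12 largest and 12 smallest log2 ratios among called genes of at least 50 CPM in a class in both flasks (5 and 5 in the other comparisons), up to 4 called genes of each list, every tested replication-dependent histone, and SLBP, NPAT, CASP8AP2, CCNE2, MCM5, CCNA2, CDK1, CCNB1 and MKI67. MCM3, MCM6, TPX2, CENPF, CKS1B, CKS2 and ARL6IP1 were named after their values were seen. Some genes counted in the lists are not reported here by name.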

Additional observations from a re-analysis of the deposited data

How the results depend on the processing

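The fit on 4 sums had 1 residual degree of freedom. Against other cells, edgeR called 997 genes, DESeq2 149, edgeR with the top 5% of cells by H4C3 349, with the top 20% 1718, and with cells matched in depth 460. Every gene called by DESeq2 was among those edgeR called. Of 85 named genes called in this comparison, DESeq2 gave 60 an adjusted p and called 37 of them. It did not call ASF1B, BAX, CCNA2, CDK1, CDKN2D, CENPF, E2F2, FBXO45, GTF3C2, H2BC15, KIF11 or MCM3. Nor did it call MCM6, MRM2, MT1X, MT2A, RRM1, SLBP, SSRP1, TEDC2, THAP7, TPX2 or UQCRC1. Against MCM-high cells the 199 calls became 23 with DESeq2, 150 with no filter, 117 with the top 5%, and 214 with library size alone, with 56 higher and 158 lower in place of 97 and 102. Against mitotic-high cells the 341 calls became 71 with DESeq2 (42 higher and 29 lower), 539 with no filter, and 606 with library size alone (169 higher and 437 lower), where the median of all genes moved to -0.11. Without the replicate block, that is, with the flask left out of the model, they became 596, with all 341 among them, while the same change gave 901 calls against other cells and 221 against MCM-high cells. Leaving out a flask left no residual degrees of freedom for these counts, so no test was made.

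The S share of 34.9% was 32.3% with the top 5% of cells, 44.8% with the top 20%, 37.3% with cells ranked after thinning, 33.3% with cells matched in depth, 36.5% with a hashtag limit of 100, 36.1% with mitochondrial UMIs under 10%, 38.5% with cells thinned before scoring and 39.1% with Seurat's updated lists. In all of these fewer than 50% of the cells were called S. The UMI ratio of 1.13 was 1.11 with the top 5%, 1.17 with the top 20%, 1.15 with mitochondrial UMIs under 10% and 1.16 without the 5% of cells of most UMIs. It was 0.978 with cells matched in depth, which fixes the depth by construction. The 20 genes at least 2-fold higher and 14 lower in both flasks became 12 higher with cells ranked after thinning, 9 lower with the top 5% and 9 lower with the top 20%, and 48 and 38 with a minimum of 20 CPM. In 1 flask alone they were 33 to 44 higher and 24 to 29 lower. MT2A changed sign with a flask left out, from -1.02 in SplitB alone to 0.0034 in SplitA alone, and it was the 1 named called gene that did so. The cause of these changes was not tested.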

Other observations

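Cells outside the kept set held few cells past the H4C3 limit. Of 95 multiplets, 5 reached it (5.26%, 95% exact binomial interval 1.73 to 11.9%), with a median of 2.06 H4C3 UMIs per 10000 over all multiplets. None of 690 assigned cells with fewer than 1000 genes did, nor any of 174 with at least 15% of mitochondrial UMIs, which allow shares of up to 0.533% and 2.10%. Their median UMI counts were 1406.5 and 2770.5.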
